A study of Homo sapiens with 4 samples.

Results

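The 10 genes described here are long noncoding RNA genes with ties to the nucleus. MALAT1 (ENSG00000251562) and NEAT1 (ENSG00000245532), neighbours on chromosome 11, make RNAs that stay in the nucleus. The other 8, GAS5 (ENSG00000234741), SNHG1 (ENSG00000255717), SNHG5 (ENSG00000203875), SNHG6 (ENSG00000245910), SNHG7 (ENSG00000233016), SNHG8 (ENSG00000269893), SNHG12 (ENSG00000197989) and SNHG16 (ENSG00000163597), carry small nucleolar RNAs (snoRNAs) within their transcripts. They are 10 of the 56612 gene IDs in the deposited count table, were taken by symbol, and were selected on values measured in these libraries, the level of MALAT1 and NEAT1 in shNUP153 and shControl set against that of the snoRNA hosts. Their levels are therefore a description. Where a member is said to lie past the threshold for all genes, this is not read as a test of it.

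RNA was sequenced from TE5, an established human esophageal squamous cell carcinoma line. Cells carried hairpin RNA against NUP153 (shNUP153, n = 2 libraries) or a control hairpin (shControl, n = 2). Both groups received their hairpin by lentivirus, went through puromycin selection and were collected at day 7. Nothing in the labels tells whether the libraries of a group stem from separate cultures, so any p-value measures the spread between these libraries, which may be technical. Descriptions of the shNUP153 pair carry the endings g1 and g2, which may or may not stand for different hairpins. Less NUP153 and a hairpin acting on another transcript cannot be told apart in this design.

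As background, MALAT1 RNA gathers in nuclear speckles, bodies rich in splicing factors, and NEAT1 RNA is the scaffold on which paraspeckles assemble. A snoRNA host gene works differently: its introns are cut out and trimmed into snoRNAs, which guide methylation or pseudouridylation of ribosomal RNA in the nucleolus, while the spliced exons of many hosts reach the cytoplasm and are degraded by nonsense-mediated decay. NUP153 is a nucleoporin of the nuclear basket, on the inner face of the pore through which spliced RNA leaves.

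The libraries held 22606593 to 27396268 counts, of which the 10 genes took 0.171% and 0.166% in shNUP153 and 0.120% and 0.116% in shControl. NUP153 itself fell to 67.9 and 81.8 CPM (counts over library size, TMM-scaled) in shNUP153, against 149 and 141 CPM in shControl (log2 fold change -0.96, SE 0.06; edgeR adjusted p = 1.06e-14). Of 8 squamous markers 7 passed the filter on low counts, with KRT14 near 0, of which KRT17 and PERP rose, KRT5, SOX2 and KRT6A fell and 2 did not pass (edgeR adjusted p under 0.05). Their summed level was 2261 and 2277 CPM in shNUP153 and 1741 and 1707 CPM in shControl, of which KRT17 alone was 1250 and 1237 CPM in shNUP153 and 744 and 723 CPM in shControl. Of 17 markers of fibroblasts, leukocytes and endothelium, DCN and LUM were at 0, and PTPRC had 0 and 0 counts in shNUP153 and 1 and 3 in shControl. COL1A1, ITGAM, CDH5 and VWF were higher in shNUP153 (edgeR adjusted p under 0.05). With DESeq2, COL1A1, ITGAM and VWF did not pass. COL3A1 and CD14 did not pass in edgeR, and the remaining markers did not pass the filter on low counts. Summed endothelial markers, of which CDH5 makes up most, were 25.1 and 24.0 CPM in shNUP153 and 12.3 and 11.1 CPM in shControl. Summed fibroblast markers, mostly COL1A1, were 17.4 and 17.5 CPM against 14.9 and 13.7 CPM, in the same order of groups. Summed leukocyte markers, mostly ITGAM, were 6.97 and 7.32 CPM against 5.67 and 5.73 CPM. The part of these marker levels in the results was not tested.

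MALAT1 and NEAT1 were about equally higher in shNUP153 cells, while the snoRNA hosts had log2 fold changes between -0.11 and 0.25. MALAT1 measured 291 and 288 CPM in shNUP153, against 184 and 165 CPM in shControl. NEAT1 measured 780 and 767 CPM in shNUP153, against 477 and 459 CPM in shControl. In both genes every shNUP153 library lay above every shControl library, and the gap between groups was several times the gap between replicates. MALAT1 averaged 289 ± 2.66 CPM in shNUP153 and 174.5 ± 13.6 CPM in shControl (SD, n = 2 each), a 1.66-fold difference (log2 fold change 0.73, SE 0.05). NEAT1 averaged 774 ± 9.18 CPM in shNUP153 and 468 ± 12.3 CPM in shControl (SD, n = 2 each), a 1.65-fold difference (log2 fold change 0.73, SE 0.04). In bulk RNA, more RNA in each cell and more cells that hold it cannot be told apart.

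Among the 16817 genes tested, 5.61% had a larger log2 fold change than MALAT1 and 5.69% a larger one than NEAT1. Both lay past the threshold used for all genes (edgeR quasi-likelihood test, Benjamini-Hochberg adjusted p under 0.05), where 32.4% of all tested genes were called, 15% higher and 17.4% lower, and the members' calls are not read against this. The share of called genes that were higher was 46.3% with TMM and 62.7% without composition scaling, while MALAT1 and NEAT1 had log2 fold changes of 0.79 and 0.79 with library totals alone. Mitochondrially encoded RNA took 5.77% and 6.59% of counts in shNUP153 and 5.31% and 5.60% in shControl. The part of this share in the results was not tested.

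**Figure D1:**
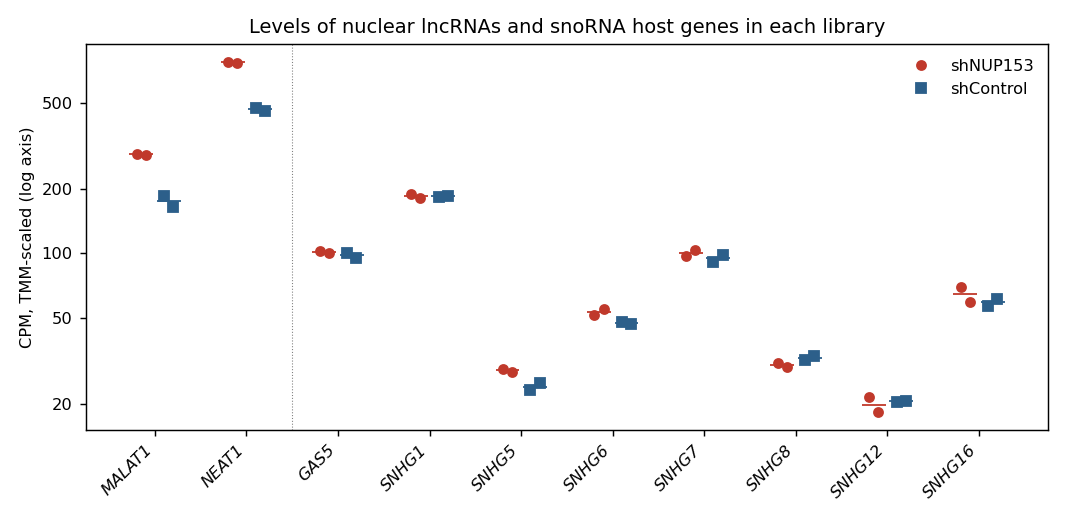
Level of each of the 10 genes in each library, in TMM-scaled CPM on a log axis, with shNUP153 libraries as red circles and shControl libraries as blue squares and a short line at each group mean (n = 2 per group). MALAT1 and NEAT1, left of the dotted line, are separated between groups by a gap several times the replicate spread. The 8 snoRNA host genes run from 18.3 to 189.9 CPM and have smaller fold changes between groups. Of these, SNHG5, SNHG6 and SNHG8 do not overlap between groups.

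The ratio of NEAT1 to MALAT1 counts was 2.68 and 2.67 in shNUP153 and 2.59 and 2.78 in shControl, so the shNUP153 ratios lay inside the range of the shControl ratios. Per kilobase of annotated exon NEAT1 and MALAT1 were near each other. NEAT1 stood at 34.0 ± 0.403 CPM per kb in shNUP153 and 20.6 ± 0.541 CPM per kb in shControl (SD, n = 2 each). MALAT1 stood at 32.8 ± 0.302 CPM per kb in shNUP153 and 19.8 ± 1.54 CPM per kb in shControl. These lengths join all annotated exons (22767 bases for NEAT1 and 8829 for MALAT1), so for NEAT1, which makes a short and a long transcript from the same start, the level per length depends on which of them was present. The deposited counts are per gene and do not separate the NEAT1 transcripts.

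Where transcription of MALAT1 starts is annotated at more than 1 place. RefSeq's GRCh38.p14 table gives 2 starts. Starts were used for 8 of the 10 genes. NEAT1 had no start sequence there, and SNHG6 was left out because sequences of its chromosome were not used. In each line below, 40 bases before the start are followed by the first 20 of the transcript. Capitals, in the lines for other genes further on, mark an unbroken run of C and T of 4 or more that begins with C at the first transcribed base; no MALAT1 start has one.
MALAT1, first start, chr11:65497698-65497757, plus strand: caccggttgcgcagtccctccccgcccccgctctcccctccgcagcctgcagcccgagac
MALAT1, second start, chr11:65499005-65499064, plus strand: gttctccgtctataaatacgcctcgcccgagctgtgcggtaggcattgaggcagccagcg
The second start holds the letters TATAA on the gene strand 16 to 40 bases before it and the first does not. TATAA stands in that window at 3.91% of the 35116 RefSeq starts on the gene strand and at 1.73% on the other strand.

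Genes beside MALAT1 and NEAT1 did not move as a block. Over all tested genes, 15% rose and 17.4% fell. Of 11 genes near them that were looked up, 7 were found and tested, of which 3 rose, 1 fell and 3 did not pass the test (1 rose without shNUP153 replicate 1, and 2 without any 1 of the other libraries), with a median log2 fold change of 0.064 against 0.0054 over all tested genes. SLC25A45, a member of the mitochondrial carrier family that lies on the NEAT1 side, measured 10.3 and 8.71 CPM in shNUP153, against 4.50 and 4.65 CPM in shControl. On the log2 scale it rose by 1.06 (SE 0.14; edgeR adjusted p = 3.45e-07). FRMD8, which lies between SLC25A45 and NEAT1 in the chromosome order, had a log2 fold change of 0.064 (SE 0.05) without passing. On the MALAT1 side, LTBP3, a protein that binds latent TGF-beta, had a log2 fold change of 0.0038 and did not pass.

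Farther along, SSSCA1 had a log2 fold change of 0.18 (edgeR adjusted p = 0.0148) and FAM89B one of 0.91 (edgeR adjusted p = 0.00823). These annotated genes share 1030 exon bases, so their reads could be split between them. Without shNUP153 replicate 1 neither passed, at adjusted p = 0.11 for SSSCA1 (log2 fold change 0.193) and 0.0722 for FAM89B (log2 fold change 0.884). SSSCA1 also missed the threshold without shNUP153 replicate 2 (0.164, adjusted p = 0.176) and without shControl replicate 1 (0.143, adjusted p = 0.0766). FAM89B also missed it without shControl replicate 2 (0.723, adjusted p = 0.0901). EHBP1L1, a protein of membrane traffic, fell to 175 and 180 CPM in shNUP153, against 203 and 211 CPM in shControl (log2 fold change -0.22, SE 0.05, edgeR adjusted p = 3.58e-04).

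**Figure D2:**
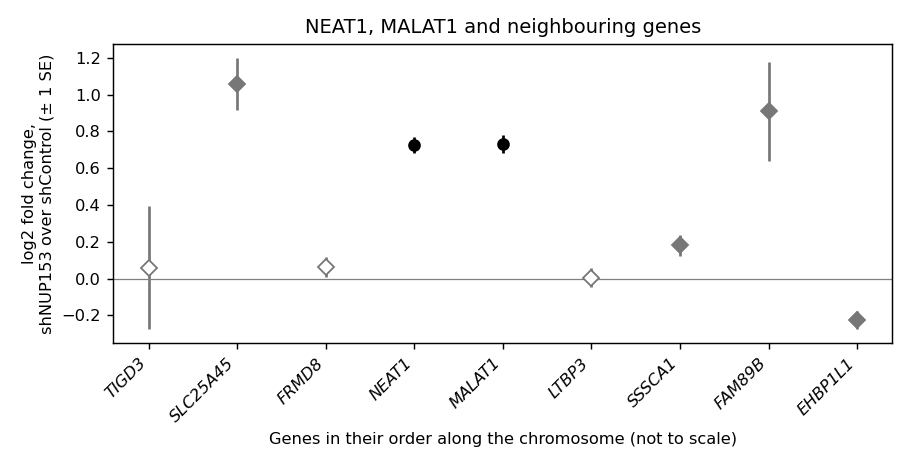
Log2 fold change, shNUP153 over shControl, with bars of ± 1 SE, for NEAT1 and MALAT1 (black circles) and 7 nearby genes (grey diamonds, filled where past the threshold), placed in chromosome order and not to scale. NEAT1 and MALAT1 lie at 0.73 each, SLC25A45 at 1.06, and LTBP3, on the other side, near 0.

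The 8 snoRNA hosts held nearly the same summed level in both groups, 584 ± 11.7 CPM in shNUP153 and 561 ± 6.03 CPM in shControl (SD, n = 2 each). The CPM of MALAT1 over the median CPM of the hosts, a ratio not corrected for length, was 4.79 and 4.99 in shNUP153 and 3.49 and 3.05 in shControl. For NEAT1 this ratio was 12.8 and 13.3 in shNUP153 and 9.04 and 8.48 in shControl. As these ratios are taken within a library, they do not depend on how libraries are scaled.

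SNHG5, host of SNORD50A and SNORD50B, measured 28.99 and 28.16 CPM in shNUP153, against 23.1 and 24.9 CPM in shControl. SNHG6, host of SNORD87, measured 51.9 and 55.4 CPM in shNUP153, against 48.3 and 46.9 CPM in shControl. In both genes the groups did not overlap, with shNUP153 higher by 0.25 (SE 0.08) on the log2 scale for SNHG5 and 0.17 (SE 0.06) for SNHG6. Both lay past the threshold for all genes, with less margin than MALAT1 and NEAT1. SNHG5 was below the threshold without shNUP153 replicate 1 (0.222), without shNUP153 replicate 2 (0.266) and without shControl replicate 1 (0.193). SNHG6 was below it without shNUP153 replicate 1 (0.217), without shNUP153 replicate 2 (0.124) and without shControl replicate 2 (0.146). DESeq2 called neither.

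GAS5, SNHG1 and SNHG7 showed levels that overlapped between groups. GAS5, named for its accumulation in growth-arrested cells and host of a row of box C/D snoRNAs, measured 103 and 99.97 CPM in shNUP153, against 100.4 and 95.4 CPM in shControl (log2 fold change 0.050, SE 0.05). SNHG1, also a box C/D host, measured 189.9 and 181 CPM in shNUP153, against 184 and 184 CPM in shControl (log2 fold change 0.010, SE 0.05). SNHG7, host of the box H/ACA snoRNAs SNORA17A and SNORA17B, measured 96.9 and 103.5 CPM in shNUP153, against 91.7 and 98.6 CPM in shControl (log2 fold change 0.073, SE 0.06). For each of the 3, replicates of at least 1 group differed by more than the group means did.

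SNHG16, host of SNORD1A to SNORD1C, measured 69.7 and 59.7 CPM in shNUP153, against 57.2 and 61.3 CPM in shControl. Its 2 shNUP153 libraries lay on either side of the higher shControl library, so its log2 fold change of 0.13 (SE 0.07) was carried by shNUP153 replicate 1 and was 0.0070 without it. Without shControl replicate 2 its log2 fold change was 0.174 and with library totals alone 0.191, both past the threshold. SNHG12, host of SNORD99 and several box H/ACA snoRNAs, measured 21.4 and 18.3 CPM in shNUP153, against 20.4 and 20.7 CPM in shControl (log2 fold change -0.049, SE 0.09). Here too the shNUP153 libraries lay on either side of the shControl pair, and the sign of the difference turned with library totals alone (0.014) and without shNUP153 replicate 2 (0.0565). SNHG8, host of SNORA24, was the 1 gene of the 10 with both shNUP153 libraries below both shControl libraries, at 31.0 and 29.7 CPM against 32.1 and 33.5 CPM. Its log2 fold change was -0.11 (SE 0.08), not past the threshold.

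Counted over all 10 genes, 4 were called higher (MALAT1, NEAT1, SNHG5 and SNHG6) and 6 were not called, where 32.4% of all tested genes were called. Groups did not overlap in 5 of the 10, with shNUP153 higher in 4 and lower in 1, where 64.4% of all tested genes had groups that did not overlap (32.2% in each direction). As the genes were chosen with these values known, neither count is read as a result.

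Per kilobase of annotated exon, SNHG1 was highest in both groups, at 49.4 ± 1.67 CPM per kb in shNUP153 and 49.0 ± 0.094 CPM per kb in shControl (SD, n = 2 each). SNHG12 was lowest in both, at 4.65 ± 0.521 and 4.82 ± 0.039 CPM per kb in the same order. In shControl the order between them ran SNHG6, SNHG8, GAS5, SNHG7, NEAT1, MALAT1, SNHG16 and SNHG5, from 38.2 down to 8.57 CPM per kb, and among neighbours in it the libraries of NEAT1 and MALAT1 overlapped. In shNUP153 NEAT1 and MALAT1 stood above GAS5 and SNHG7 and below SNHG6, with SNHG8 between them at 32.9 ± 0.981 CPM per kb and overlapping MALAT1. The lengths join all annotated exons, which in hosts such as SNHG1, SNHG7 and SNHG12 include bases of their own snoRNAs. The transcripts present may hold only part of these exons, so this order depends on the annotation and gives no relative abundance.

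Reads of some hosts could come from genes on the opposite strand, since whether counting used strand is not stated. SNHG7 shares 1094 exon bases with DIPK1B, which had 1225 counts over all libraries and levels of 12.0 and 12.7 CPM in shNUP153 and 12.7 and 12.4 CPM in shControl. SNHG6 shares 365 exon bases with MCMDC2, which had 31 counts over all libraries. SNHG16 shares 1639 of its 5362 exon bases with AC015802.6, a gene not analysed here. Overlaps of GAS5 with GAS5-AS1 (42 bases) and of SNHG12 with TRNAU1AP (8 bases) were short.

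Few counts were assigned to the snoRNAs themselves. Of 33 snoRNA symbols that belong to the 8 hosts, 18 were found, in 20 rows, and 18 of these rows were at 0 in all libraries. SNORD99 had 14 and 16 counts in shNUP153 and 18 and 21 in shControl, and SNORD1B had 1 and 1 against 3 and 3. All 18 rows at 0 share exon bases with another gene on the same strand in GENCODE v29, in most cases the host, and neither of the 2 rows with counts does. RN7SL1, RMRP and RPPH1, abundant RNAs without a poly(A) tail, also share exon bases with another annotated gene on the same strand and were at 0. RN7SL2 shares none and was counted in every library. The part of these overlaps in the zeros was not tested. Host values here are those of the host transcripts and give no level of mature snoRNA.

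Many snoRNA hosts are known as genes of the terminal oligopyrimidine class, whose transcripts begin with C and a run of pyrimidines. Starts were used for 7 of the hosts, and 3 of these 7 hold such a run of 4 or more. They are shown with 2 that do not, so that a reader can set start and level side by side.
SNHG5, chr6:85678714-85678773, minus strand: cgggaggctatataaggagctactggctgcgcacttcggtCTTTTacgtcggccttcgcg
SNHG7, chr9:136728165-136728224, minus strand: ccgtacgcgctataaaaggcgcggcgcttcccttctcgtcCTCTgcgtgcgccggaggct
SNHG12, chr1:28581854-28581913, minus strand: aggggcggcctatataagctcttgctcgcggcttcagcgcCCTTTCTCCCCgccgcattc
SNHG8, chr4:118278722-118278781, plus strand: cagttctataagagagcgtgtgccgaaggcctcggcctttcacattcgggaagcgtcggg
GAS5, chr1:173869026-173869085, minus strand: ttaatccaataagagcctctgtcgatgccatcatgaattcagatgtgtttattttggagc
The 3 with a run had log2 fold changes of 0.25, 0.073 and -0.049 in the order shown. Without a run, SNHG8 had -0.11, GAS5 0.050, SNHG1 0.010 and SNHG16 0.13. Members with and without the run thus spanned overlapping ranges. The letters TATAA stand 16 to 40 bases before the start of SNHG5, SNHG7, SNHG8 and SNHG12, 4 of the 7. Over all 35116 RefSeq starts, 5.45% hold the run. A start in the table may differ from the one used in these cells, and a missing run says only that the letters are not at that position.

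The 8 hosts described here had log2 fold changes between -0.11 and 0.25. They were chosen with these values known, so no other range is compared with theirs. Other noncoding snoRNA hosts moved in both directions, with log2 fold changes between -0.58 and 0.59. The upper end is SNHG21, which had 8 to 28 counts per library (SE 0.40) and did not pass. Of 24 symbols of these other hosts 21 were in the table and 18 were tested. Of the 18, 3 rose, 4 fell and 11 did not pass, with a median log2 fold change of 0.059. Without shNUP153 replicate 1, 1 rose and 2 fell, and without shControl replicate 2, 5 rose and 3 fell. Over all 2492 long noncoding genes tested, 9.03% rose and 3.49% fell, with a median of 0.0996.

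C6orf48, which RefSeq calls SNHG32 and GENCODE lists as protein-coding, measured 83.9 and 83.6 CPM in shNUP153, against 53.7 and 60.0 CPM in shControl (log2 fold change 0.56, SE 0.06, edgeR adjusted p = 4.18e-09). SNHG29 rose by less (0.24, SE 0.06, edgeR adjusted p = 0.00158), and without shNUP153 replicate 1 did not pass (0.201, adjusted p = 0.0925). The third that rose, SNHG11, had a log2 fold change of 0.37 (edgeR adjusted p = 0.011). DANCR, an antidifferentiation noncoding RNA in epidermal progenitors, fell to 96.9 and 105 CPM in shNUP153, against 132 and 128 CPM in shControl (log2 fold change -0.36, SE 0.05, edgeR adjusted p = 1.54e-06).

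SNHG4 fell to 15.6 and 17.3 CPM in shNUP153, against 24.9 and 24.2 CPM in shControl (log2 fold change -0.58, SE 0.09, edgeR adjusted p = 4.08e-06). It shares 626 exon bases on the same strand with a MATR3 entry that fell too, to 4.70 and 5.22 CPM in shNUP153, against 9.004 and 8.766 CPM in shControl (edgeR adjusted p = 1.22e-05), so reads of the pair could be split. SNHG18 (-0.37) and SNHG19 (-0.26) were the other 2 that fell; SNHG11, SNHG18 and SNHG19 are named after their values were seen. C6orf48 and SNHG4, which lie at either end of the list's calls, both start with a pyrimidine run, as 6 of the 16 matched genes of this list do. The others with a run were SNHG18 and SNHG19, which fell, and SNHG26 (-0.22) and ZFAS1 (0.23), which did not pass. Of the called genes, SNHG29, SNHG11 and DANCR start without a run. Whether the run goes with the direction of change was not tested.
C6orf48, chr6:31834876-31834935, plus strand: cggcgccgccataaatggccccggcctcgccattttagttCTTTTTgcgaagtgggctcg
SNHG4, chr5:139274061-139274120, plus strand: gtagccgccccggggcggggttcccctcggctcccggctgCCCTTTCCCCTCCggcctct

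**Figure D3:**
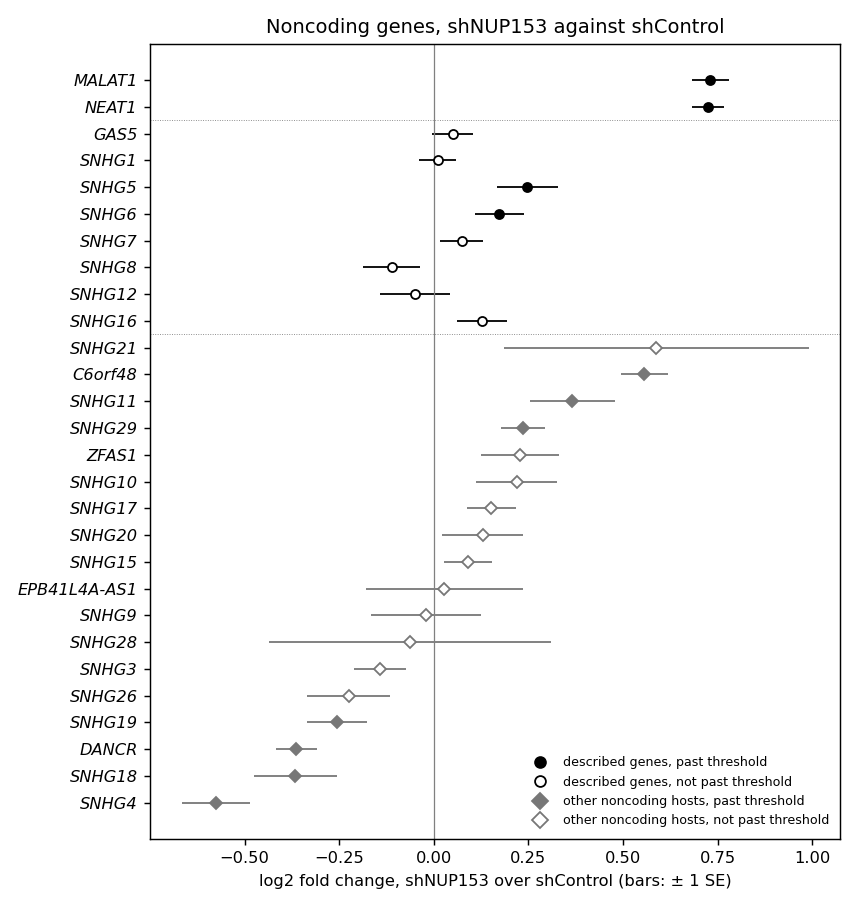
Log2 fold change, shNUP153 over shControl, with bars of ± 1 SE, for the 10 described genes (black circles; MALAT1 and NEAT1 above the first dotted line, the snoRNA hosts below it) and 18 other noncoding snoRNA hosts (grey diamonds), filled where past the threshold. The 8 described hosts, chosen with these values known, lie between -0.11 and 0.25. The other hosts lie between -0.58 and 0.59, the upper end being SNHG21, which has a wide error and did not pass.

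Protein-coding genes that host snoRNAs, most of them ribosomal protein and translation genes, were mostly lower. Over all 13308 protein-coding genes tested, 21.1% fell and 16.7% rose. These shares take in genes of lower level than most of these hosts. Of all genes, 5448 of 16817 tested were called, and 4889 of 11028 with a mean of at least 5 CPM. This list and the protein lists below were chosen with earlier results known, so their counts are descriptions. Of the 35 hosts tested, 22 fell, 2 rose and 11 did not pass, with a median log2 fold change of -0.16. The count was 14 without shNUP153 replicate 1. RPS13, a protein of the small ribosomal subunit, fell most clearly, to 187 and 190 CPM in shNUP153, against 299 and 296 CPM in shControl (log2 fold change -0.66, SE 0.05, edgeR adjusted p = 8.26e-14). HSPA8, the constitutive HSC70 chaperone, fell to 1797 and 1859 CPM in shNUP153, against 2378 and 2355 CPM in shControl (log2 fold change -0.37, SE 0.04, edgeR adjusted p = 2.19e-09). NCL, nucleolin, had a log2 fold change of -0.29 and RPSA, the laminin receptor and ribosomal protein, also -0.29 (edgeR adjusted p = 5.15e-07 for NCL and 1.01e-06 for RPSA). EIF4A2, a helicase of translation initiation, at 0.23 (edgeR adjusted p = 6.28e-05) and TPT1 at 0.14 (edgeR adjusted p = 0.0136) were the 2 that rose, both named after their values were seen, and 1 rose without shNUP153 replicate 1 or replicate 2. Ribosomal protein genes have many near-identical pseudogene copies, among which the counting may have split reads. EIF4A1, RPL17 and PPAN, which did not pass, measured at most 3.85, 3.08 and 2.57 CPM in any library. Each shares exon bases with another annotated gene on the same strand, and the part of this in their low levels was not tested.

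Genes for proteins that handle snoRNAs were lower where they were called, in short lists and with 21.1% of all tested protein-coding genes lower. Of the box C/D core, the methyltransferase FBL (-0.23, SE 0.05, edgeR adjusted p = 0.00116) and NOP56 (-0.19, SE 0.05, edgeR adjusted p = 0.00127) fell, while SNU13 (-0.058) and NOP58 (0.015) did not pass. Without shNUP153 replicate 1 neither FBL (-0.204, adjusted p = 0.0708) nor NOP56 (-0.181, adjusted p = 0.0599) passed. None of the 4 box H/ACA core genes passed in edgeR, DESeq2 or limma-voom, while 2 had an unadjusted p under 0.05 in edgeR: DKC1, the pseudouridine synthase, had -0.11, NHP2 -0.11, NOP10 0.080 and GAR1 0.039, and without shControl replicate 2 DKC1 passed (-0.128, adjusted p = 0.0298).

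Of 12 snoRNP assembly factors 4 fell and 8 did not pass, and 2 fell with library totals alone or without shNUP153 replicate 1. TCOF1, treacle, a nucleolar factor of ribosomal RNA synthesis, had -0.30 (SE 0.04, edgeR adjusted p = 1.62e-06), and RUVBL1, an ATPase of the R2TP complex, had -0.30 (SE 0.05, edgeR adjusted p = 9.36e-06). ZNHIT6, a box C/D assembly factor, had -0.20 (edgeR adjusted p = 0.00711), and without shNUP153 replicate 1 (-0.177, adjusted p = 0.151) or replicate 2 (-0.230, adjusted p = 0.0537) it did not pass. SHQ1, a chaperone of DKC1, had -0.29 (edgeR adjusted p = 0.018), and without shNUP153 replicate 1 (-0.179, adjusted p = 0.338) or shControl replicate 2 (-0.264, adjusted p = 0.0618) it did not pass.

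NEAT1, chosen with its level known, was higher, while genes for proteins that bind it in paraspeckles were lower or did not pass. Over all protein-coding genes tested, 21.1% fell and 16.7% rose. Of 17 paraspeckle protein genes, all tested, 9 fell and 8 did not pass, with a median log2 fold change of -0.14. The count was 5 without shNUP153 replicate 1. None rose in edgeR, DESeq2 or limma-voom, also at an unadjusted p under 0.05 in edgeR. DAZAP1 fell to 223 and 227 CPM in shNUP153, against 286 and 299.6 CPM in shControl (log2 fold change -0.38, SE 0.05, edgeR adjusted p = 4.60e-08). NUDT21, a cleavage factor that bears on the choice of poly(A) site, fell to 265.5 and 279 CPM in shNUP153, against 353 and 326 CPM in shControl (log2 fold change -0.32, SE 0.05, edgeR adjusted p = 1.94e-06). NONO, a core paraspeckle protein, had -0.22 (edgeR adjusted p = 2.35e-04). HNRNPM had -0.23 (edgeR adjusted p = 2.76e-04) and did not pass without shNUP153 replicate 1 (-0.166, adjusted p = 0.0724).

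Where 21.1% of tested protein-coding genes fell, speckle proteins and other factors binding MALAT1 gave 3 that fell and 10 that did not pass among 13. With library totals alone 1 rose, and without shControl replicate 2, 5 fell. The 3, SRSF2 (-0.37, edgeR adjusted p = 9.42e-08), SRSF1 (-0.31, edgeR adjusted p = 1.73e-06) and SRSF3 (-0.27, edgeR adjusted p = 8.20e-06), are SR splicing factors. SRSF2 shares 1106 exon bases with MFSD11 on the opposite strand. SRRM2, a scaffold protein of speckles, had -0.10 (edgeR adjusted p = 0.0588) and passed without shControl replicate 2 (-0.124, adjusted p = 0.017).

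Nonsense-mediated decay degrades many spliced host transcripts. Over all protein-coding genes tested 16.7% rose and 21.1% fell. Of 20 factors of this decay 2 rose, 3 fell and 15 did not pass, with a median log2 fold change of -0.028. With library totals alone 3 rose and 1 fell, and without shNUP153 replicate 1, 1 rose and 1 fell. EIF4A3, the exon junction helicase, fell (-0.22, SE 0.05, edgeR adjusted p = 5.40e-04), as did the release factor GSPT1 (-0.17, edgeR adjusted p = 0.00246) and the exon junction protein RBM8A (-0.16, edgeR adjusted p = 0.0457), the last named after its values were seen. UPF3B rose (0.30, SE 0.08, edgeR adjusted p = 0.00199), as did SMG8 (0.22, SE 0.08, edgeR adjusted p = 0.0428). Without shNUP153 replicate 1, GSPT1 did not pass (-0.167, adjusted p = 0.0599), and without shNUP153 replicate 2, UPF3B did not (0.256, adjusted p = 0.0882). SMG8 did not pass without any 1 of the 4 libraries, at log2 fold changes of 0.174 without shNUP153 replicate 1, 0.253 without shNUP153 replicate 2, 0.235 without shControl replicate 1 and 0.189 without shControl replicate 2. UPF1, the central helicase of the pathway, had -0.045 and did not pass.

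**Figure D4:**
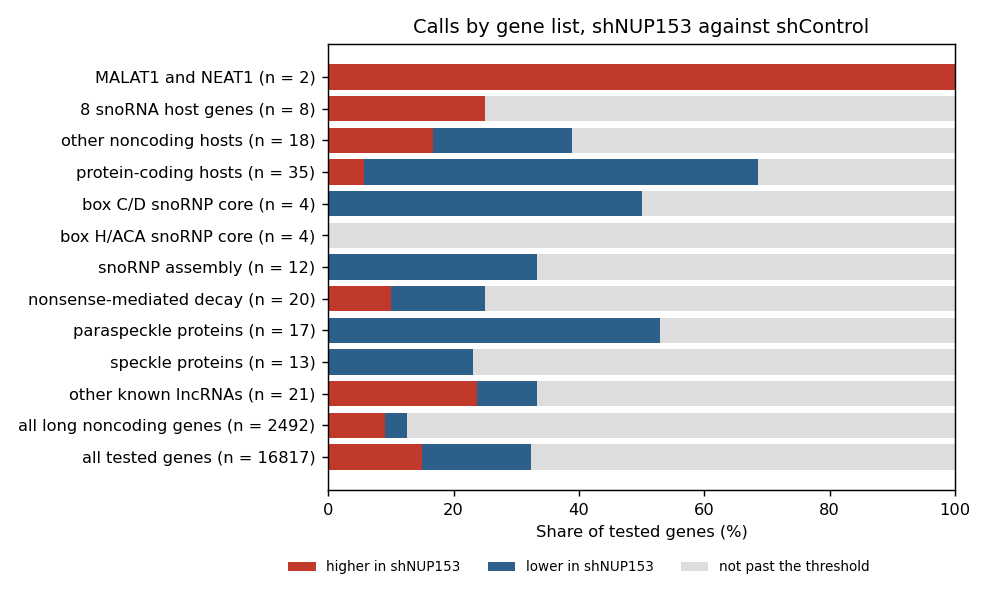
Share of tested genes (%) that were higher in shNUP153 (red), lower (blue) or not past the threshold (grey), for MALAT1 and NEAT1, the 8 snoRNA hosts and the other gene lists, with all long noncoding genes and all tested genes below them; n is the number tested. Paraspeckle, speckle and snoRNP lists hold no red (with library totals alone 1 speckle gene is higher), protein-coding hosts are mostly blue, and the lists of other noncoding hosts and of other well-known long noncoding RNAs hold both colours.

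Among other well-known long noncoding RNAs, 5 of 21 tested rose, 2 fell and 14 did not pass, with a median log2 fold change of 0.068. PVT1, the neighbour of MYC, measured 23.1 and 24.7 CPM in shNUP153, against 18.5 and 17.1 CPM in shControl (log2 fold change 0.42, SE 0.09, edgeR adjusted p = 2.96e-04). UCA1, first described in urothelial carcinoma, rose by 0.30 (edgeR adjusted p = 0.00195), and MIR22HG, the host of miR-22, by 0.38 (edgeR adjusted p = 0.00584). DLEU2, which hosts the miR-15a and miR-16 cluster, fell by 0.44 on the log2 scale (edgeR adjusted p = 8.10e-04), and it shares 346 exon bases with TRIM13 on the opposite strand. Without shNUP153 replicate 1, 1 of the 21 rose and 0 fell, and UCA1 (0.164, adjusted p = 0.265), MIR22HG (0.378, adjusted p = 0.057) and DLEU2 (-0.353, adjusted p = 0.0562) did not pass. Without shNUP153 replicate 2, 3 rose and 1 fell. NORAD, which binds PUMILIO proteins, measured 504 and 499.5 CPM in shNUP153 and 540 and 493 CPM in shControl (log2 fold change -0.041) and did not pass.

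Set among the 26 long noncoding genes with a mean of at least 50 CPM, MALAT1 and NEAT1 had the highest and second-highest log2 fold change. As both were chosen with their levels in these groups known, their rank is a description only. The next was AC245041.2 at 0.32, and the lowest were DANCR at -0.36 and FGD5-AS1 at -0.41.

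Over 11027 genes with a mean of at least 5 CPM, likeness to MALAT1 or NEAT1 was measured as the root mean square distance of centred log2 CPM over the 4 libraries. Nearest to MALAT1 were HIVEP2 (0.0122), CALCOCO1 (0.0124) and SLC7A11 (0.0236). HIVEP2, a zinc finger protein, measured 49.4 and 48.5 CPM in shNUP153 and 31.6 and 28.4 CPM in shControl. SLC7A11, the cystine transporter, measured 94.7 and 92.9 CPM in shNUP153 and 62.0 and 54.6 CPM in shControl, with shControl replicate 2 the lowest, as in MALAT1. Nearest to NEAT1 were RND3 (0.0141), SOX9 (0.0167) and KRT17 (0.0191). RND3 measured 173.5 and 174.5 CPM in shNUP153 and 109 and 103 CPM in shControl. KRT17, a stress keratin and one of the squamous markers, measured 1250 and 1237 CPM in shNUP153 and 744 and 723 CPM in shControl. NEAT1 and MALAT1 lay 0.0373 apart, and NEAT1 was 8th in the order of likeness to MALAT1. With 4 libraries in 2 groups this measure mostly reflects the group difference, and it is given as a description.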

How the data were processed

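RNA-seq was compared between TE5 libraries with shNUP153 and shControl hairpins. The deposited table gives 1 count per gene and library; its name says FPKM, but the values are whole numbers with unequal totals and were used as raw counts, as the authors deposited them. The submitters' processing notes name kallisto, DESeq2, Bowtie2, deepTools and hg19, without roles. Which tool counted, and whether by strand, is not stated in them. The 45 repeated IDs among 56657 rows were summed. All 56612 IDs are in GENCODE release 29, used for exon lengths, classes and overlaps. Start-site sequences and coordinates are RefSeq's GRCh38.p14, and no coordinate of the counted features is printed.

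Genes were filtered with filterByExpr (minimum count 10, minimum total 15) and 16817 were tested, two-sided, with edgeR 4.0.16 in R 4.3.3 (TMM, quasi-likelihood, Benjamini-Hochberg over all tested genes, threshold 0.05, 2 residual degrees of freedom, all 4 libraries, no covariate). CPM are TMM-scaled. The test was checked on simulated data. Alternatives, also with DESeq2 1.42.0 and limma 3.58.1, are given in the closing section. Replicates differed by more than sampling noise (chi-square per gene 3.09 in shNUP153, 3.57 in shControl). Named genes were the 10 members, NUP153, up to 4 genes of smallest p per list (all in lists of 5 or fewer) and the 3 nearest in pattern to MALAT1 and to NEAT1. Members and lists were chosen with earlier results of these data known. The deposited fold change and p columns were not used. Some results are not reported here.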

Additional observations from a re-analysis of the deposited data

How the results depend on the processing

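There were 13 alternatives (scaling, test, filter, replicate block, library size, leaving out each library). Over these, MALAT1 ranged from 0.646 to 0.808 and NEAT1 from 0.692 to 0.788 in log2 fold change. SNHG5 (0.193 to 0.311) and SNHG6 (0.124 to 0.236) did not pass in every one. The alternatives reuse the same libraries and the members were chosen with these values known, so the ranges describe the processing only. The DESeq2 Wald test called 3556 genes, 1442 of them higher, against 5448 and 2521, with 2 of the 10 members higher and 2 other noncoding hosts lower; the cause was not tested. Other noncoding hosts that rose numbered 6 with library totals alone, 5 with upper-quartile scaling and 5 with a mean of at least 5 CPM. Library totals alone moved the median of all tested genes to 0.069 and upper-quartile scaling moved it to 0.049. Leaving out 1 library gave 3072 to 5201 genes changed, 1303 to 2327 higher and 1769 to 2874 lower, 2 to 4 members higher, 1 to 5 other noncoding hosts higher and 2 to 4 lower, 14 to 23 protein-coding hosts lower and 5 to 9 paraspeckle genes lower. Fewer libraries entered those fits, and the lone library was taken to vary like the other group.

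Among named genes, signs turned for these, whose values did not pass: SNU13 (0.0055 with library totals alone), COL3A1 (0.044 with library totals alone, 0.024 with upper-quartile scaling, 0.0061 with the replicate block, and -0.233 to 0.269 without 1 library), and, without 1 library, CD14 (-0.928 to 0.354), NOP58 (-0.00906 to 0.0334), GAR1 (-0.0276 to 0.10), RN7SKP80 (-0.355 to 0.0972), besides the members SNHG1 and SNHG12. Same-numbered libraries did not deviate together (correlation -0.0037 across genes). This cannot settle whether the numbers pair them, and the labels do not say. With the replicate block 5465 genes were called.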

Other observations

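RN7SL2, a signal recognition particle RNA without a poly(A) tail, measured 141 and 176 CPM in shNUP153, against 184 and 218 CPM in shControl (log2 fold change -0.35, edgeR adjusted p = 1.12e-04), and did not pass without shNUP153 replicate 1 (-0.198, adjusted p = 0.103) or in DESeq2 (adjusted p = 0.211). The endothelial cadherin CDH5 measured 22.7 and 22.2 CPM in shNUP153, against 11.3 and 9.63 CPM in shControl (log2 fold change 1.11, SE 0.10, edgeR adjusted p = 6.44e-11), while PECAM1, another endothelial marker, had 3 and 1 counts in shNUP153 and 0 and 0 in shControl.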
